A study of Mus musculus with 12 samples.

Results

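The genes described here were 6 genes of MHC class II antigen presentation, chosen by name: H2-Aa, H2-Ab1, H2-Eb1, H2-DMa, H2-DMb1 and Ciita. Each was found once among the 32285 genes measured. They were followed in mouse tumours grown from the SCC35 line, in which cells were profiled with the 10x 5′ single-cell assay and each tumour carried its own antibody hashtag. The 2 control lines, numbered 15 and 18, and the 2 lines with Mif knocked out (KO), numbered 19 and 24, were sampled at days 0, 6, 10 and 16. The product of Mif, macrophage migration inhibitory factor, is a cytokine that cells secrete. Tumours marked WT, at days 6, 10 and 16, have no group in the labels and enter no test. They are included in the cell numbers and levels given by class. All tumour groups were live cells sorted from dissociated tissue. What a control line carries in place of the knockout, whether a line is a single clone, the mouse strain and age, and what a day 0 sample is were not given in the sources used here. Line is nested in group, so the knockout and anything else that differs between these 4 lines cannot be told apart.

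MHC class II molecules display peptides from proteins taken up by the cell to CD4+ T cells. In the mouse, H2-Aa and H2-Ab1 encode the alpha and beta chains of I-A, and H2-Eb1 encodes the beta chain of I-E. The invariant chain, encoded by Cd74, guards the groove until proteases trim it, and the H2-DM heterodimer of H2-DMa and H2-DMb1 then exchanges the remaining fragment for peptide. Ciita is the transcriptional coactivator that switches the whole group on. It binds no DNA itself but docks on RFX, CREB and NF-Y proteins seated on the X and Y boxes of the promoters. Dendritic cells and B cells transcribe class II genes constantly, macrophages raise them under interferon gamma, and many non-blood cells transcribe them only under that cytokine.

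In the GRCm38 build (GENCODE M21), 5 of the 6 genes lie together in the MHC on chromosome 17. H2-DMa spans chr17:34119541-34139101, H2-DMb1 spans chr17:34153072-34160230, H2-Ab1 spans chr17:34257689-34269419 and H2-Eb1 spans chr17:34305867-34316674, all on the plus strand. H2-Aa spans chr17:34282744-34287823 on the minus strand. Ciita lies apart, at chr16:10480059-10528418 on the plus strand. The counts are per whole gene, so exons and introns were not separated.

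Because the members moved together in macrophages, the stretch in front of 2 of the chain genes is shown, 160 bases up to the base before the RefSeq start (GRCm38.p6), read 5′ to 3′ on the gene's own strand. Capitals mark the Y box letters TGATTGG, the letters TGACGTCA, which CREB proteins bind, and AACTGATGATGCT, the longest run shared by the H2-Eb1 and H2-DMb1 windows, which falls in the X box region. The H2-Aa stretch is chr17:34287824-34287983, minus strand, and the H2-Eb1 stretch is chr17:34305707-34305866, plus strand.
H2-Aa: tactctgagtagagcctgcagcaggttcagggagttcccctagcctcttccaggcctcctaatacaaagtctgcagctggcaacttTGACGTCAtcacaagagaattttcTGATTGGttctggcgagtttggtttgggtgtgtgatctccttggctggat
H2-Eb1: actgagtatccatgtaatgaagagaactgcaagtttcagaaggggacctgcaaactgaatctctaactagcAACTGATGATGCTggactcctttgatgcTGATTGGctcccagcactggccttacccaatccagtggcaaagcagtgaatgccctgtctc
In H2-Aa the Y box lay 50 to 44 bases before the start and the TGACGTCA letters 74 to 67 bases before it. In H2-Eb1 the Y box lay 61 to 55 and the shared run 89 to 77 bases before the start. H2-DMb1 held the same arrangement, with the Y box 63 to 57 and the shared run 92 to 80 bases before its RefSeq start. Neither of the 2 H2-DMa windows held any of the motifs, and windows for H2-Ab1 and Ciita were not used here. Over 32851 windows of 250 bases before RefSeq starts, searched on both strands, TGATTGG was found in 7.23%, TGACGTCA in 1.55%, and AACTGATGATGCT in 2 (0.00609%), the pair it was read from. A match describes letters and is not evidence that a factor was bound.

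The 6 libraries, 1 for each line and 2 mixed, held 151385933 to 239699029 gene UMIs (unique molecule counts). Of 163866 cells passing filters, 100459 carried 1 hashtag and were used, and 13716 of 149440 distinct cell barcodes (9.178%) occurred in more than 1 library. The library of line 24 stood apart, with the lowest median depth (3072 UMIs per cell, against up to 9121) and the highest share of hashtag doublets (30.93%, against 17.94% at the lowest). In line cells, Mif averaged 2455 ± 397.3 counts per 1000000 UMIs (CPM; SD, n = 11 tumours) in line 15 and 2166 ± 268.4 (n = 10) in line 18. It averaged 110.4 ± 97.34 (n = 11) in line 19 and 471.5 ± 199.9 (n = 10) in line 24. The groups did not overlap, with 1784 CPM in the lowest control and 755.6 in the highest KO sample, and the transcript was reduced but not absent in both KO lines. Cells were assigned to classes by marker genes that include no class II gene and not Cd74. The gates gave 9453 macrophages, 3591 monocytes, 783 dendritic cells and 63453 line cells, the last being cells with almost no blood cell transcripts. The gates' own markers follow from the gates: C1qa, for example, read 2923 CPM in macrophages and 4.181 in line cells. In the summed dendritic cells, Ccr7 read 1637 CPM, Cd209a 247.9, Flt3 86.15 and Xcr1 31.88. Day 0 samples of lines 15, 18 and 19 held 0 macrophages and those of line 24 held 3, so host classes were followed at days 6, 10 and 16.

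Dendritic cells held the highest median levels of all 6 genes, macrophages and monocytes followed, and line cells lay far below. Values are each class's UMIs summed per tumour and scaled to CPM, given as the lowest, median and highest tumour. WT tumours are included, and in line cells the day 0 samples too. H2-Aa read 6424, 8027 and 13050 CPM in dendritic cells, 784, 2580 and 7702 in macrophages, 878.3, 1875 and 5711 in monocytes, and 0.566, 4.936 and 96.64 in line cells. No line cell value reached the lowest macrophage value, while the macrophage and dendritic ranges overlapped.

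**Figure D1:**
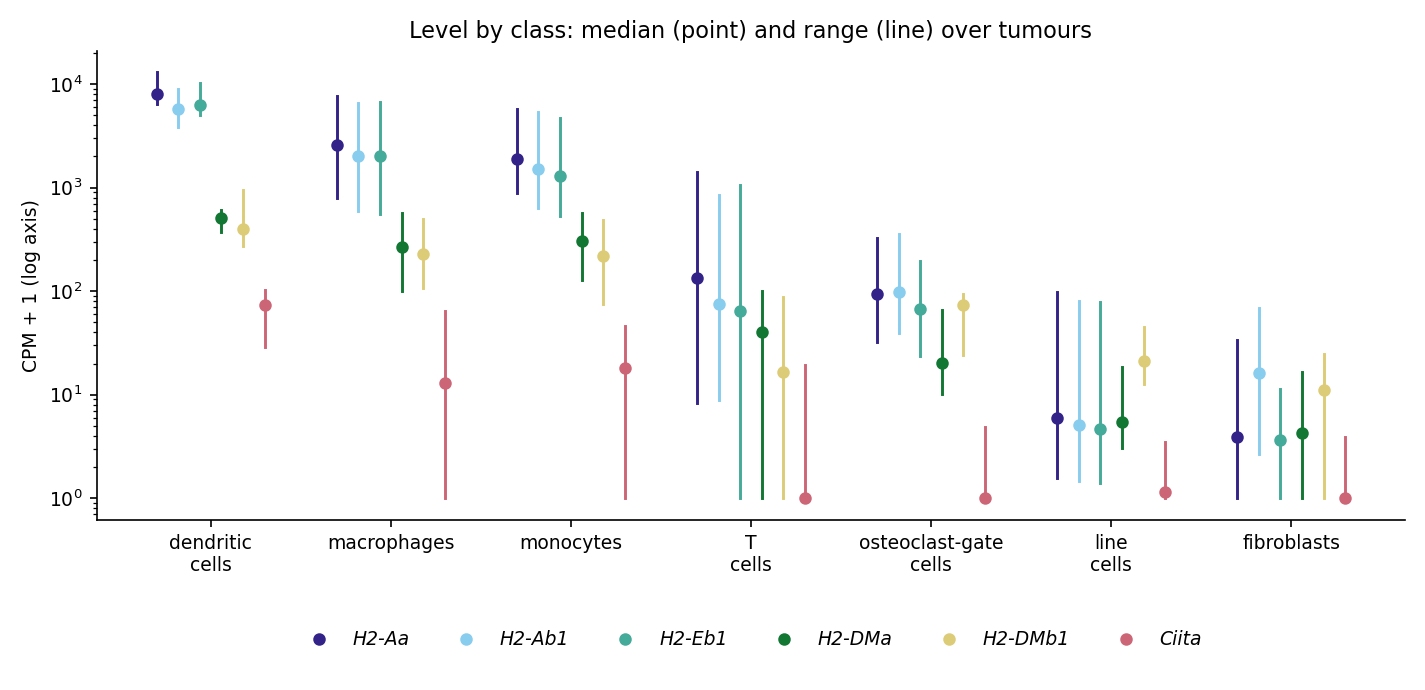
Level of the 6 genes (CPM + 1, log axis) in 7 cell classes, with the median (point) and the range (line) over tumours that held at least 20 cells of the class. WT tumours and day 0 samples are included. H2-Aa medians fall from 8027 in dendritic cells to 2580 in macrophages and 4.936 in line cells, while H2-DMb1 medians are 393.9 in dendritic cells and 229.4 in macrophages and its line cell values run from 11.57 to 44.31.

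With WT tumours again included, H2-Ab1 had medians of 5720 CPM in dendritic cells, 2020 in macrophages, 1509 in monocytes and 4.147 in line cells. H2-Eb1 had medians of 6297, 2033, 1307 and 3.651 in the same order. H2-DMa medians were 505.1, 265.9, 305.5 and 4.418. H2-DMb1, with medians of 393.9, 229.4 and 218.9 and line cell values of 11.57 to 44.31, was the member whose line cell level came closest to its macrophage level. Ciita is scarce everywhere: its medians were 72.22, 11.95, 17.24 and 0.151, from 1432 UMIs in all cells used.

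On average within tumours, dendritic cells exceeded macrophages in all 6 genes, but not in every tumour. In line 24 at day 16, macrophages read 439.8 to 494.8 CPM of H2-DMb1. Dendritic cells of KO tumours at day 16 read 272.1 to 370.3. In 12 tumours with both classes, edgeR's quasi-likelihood test with tumour as a term gave log2 differences of 1.71 (SE 0.21, adjusted p = 2.8e-07) for Ciita, 1.56 (SE 0.24) for H2-Aa, 1.60 (SE 0.25) for H2-Eb1 and 1.24 (SE 0.24) for H2-Ab1. The exchange factor differed less, by 0.81 (SE 0.23, adjusted p = 0.0057) for H2-DMb1 and 0.41 (SE 0.15, adjusted p = 0.033) for H2-DMa. Among 4911 genes tested in the same way, 19.5% were higher and 19.6% lower in dendritic cells. The H2-DMa call was lost in 7 of 10 alternative analyses, and without the tumours of line 15 only 4 of the 6 genes passed. Of 14 other class II pathway genes tested of 19, 9 were higher and 2 lower in dendritic cells. The higher ones included H2-Oa (log2 difference 4.39) and H2-Ob (3.37), which encode the H2-O chains that restrain H2-DM, and the costimulatory Cd80 (1.81), Cd86 (1.398) and Cd40 (1.68). The lower ones were 2 lysosomal proteases, Lgmn (-2.60) and Ctss (-1.23).

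The 3 chain genes were slightly lower in monocytes than in macrophages. In 32 tumours H2-Eb1 was lower in monocytes by a log2 difference of -0.42 (SE 0.091, adjusted p = 0.00012), H2-Ab1 by -0.27 (SE 0.090, adjusted p = 0.012) and H2-Aa by -0.25 (SE 0.086, adjusted p = 0.016). The differences for H2-DMa (0.01), H2-DMb1 (-0.02) and Ciita (0.29, SE 0.18) did not pass. Of 7985 genes tested, 19.4% were higher and 20.4% lower in monocytes. Of the 6 members, only H2-Eb1 passed with DESeq2 and with the other hashtag call, and without line 24 H2-Aa (-0.04) and H2-Ab1 (-0.07) no longer passed.

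The main comparison asks how macrophages of tumours from the 2 lines labelled Mif KO differ from those of the 2 control lines. All 6 class II genes were higher in macrophages of KO tumours, by log2 differences of 0.87 for H2-DMb1 and 1.21 to 1.67 for the others. The comparison had 18 control and 17 KO tumours with at least 20 macrophages, with 5318 and 3276 macrophages in all. Fewer positive cells and less RNA per cell cannot be told apart in these sums, but single cells showed a wider share as well, as given below.

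The I-A and I-E chains rose together. H2-Aa read 784, 1567 and 3832 CPM (lowest, median, highest) in control tumours and 1640, 3965 and 7702 in KO tumours. The ranges overlapped, with 9 of 17 KO tumours above every control tumour and 9 of 18 control tumours below every KO tumour. The log2 difference was 1.41 (SE 0.20, adjusted p = 8.95e-07).

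H2-Ab1 read 591, 1252 and 3134 CPM in control and 1246, 3111 and 6563 in KO tumours, a log2 difference of 1.47 (SE 0.22, adjusted p = 2.45e-06). H2-Eb1 read 554.6, 1235 and 2983 in control and 1129, 3279 and 6739 in KO tumours, a log2 difference of 1.48 (SE 0.21, adjusted p = 2.15e-06). For these 2 beta chains, 8 and 9 of the 17 KO tumours lay above every control tumour. The highest control value of both, and of H2-Aa, came from 1 tumour, line 18 day 10 letter A.

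H2-DMa, the alpha chain of the peptide exchange factor, separated the groups best. It read 98.28, 198.4 and 331.8 CPM in control and 222.5, 472.7 and 566.6 in KO tumours, with 13 of 17 KO tumours above every control tumour. The log2 difference was 1.21 (SE 0.15, adjusted p = 1.08e-07). Its partner H2-DMb1 read 107.3, 172.9 and 376.5 in control and 120.0, 324.1 and 499.6 in KO tumours, a log2 difference of 0.87 (SE 0.17, adjusted p = 0.000125). Only 6 KO tumours exceeded every control tumour in H2-DMb1.

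Ciita, the coactivator of the group, read 0, 7.868 and 26.27 CPM in control and 4.854, 24.19 and 63.95 in KO tumours. These values rest on 158 and 220 UMIs, and 6 KO tumours lay above every control tumour. The log2 difference was 1.67 (SE 0.26, adjusted p = 5.65e-06). Among the 6603 genes tested in macrophages, 18.4% passed as higher and 16.8% as lower in KO tumours. The median log2 difference was 1.44 over the members and -0.0035 over all genes tested.

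**Figure D2:**
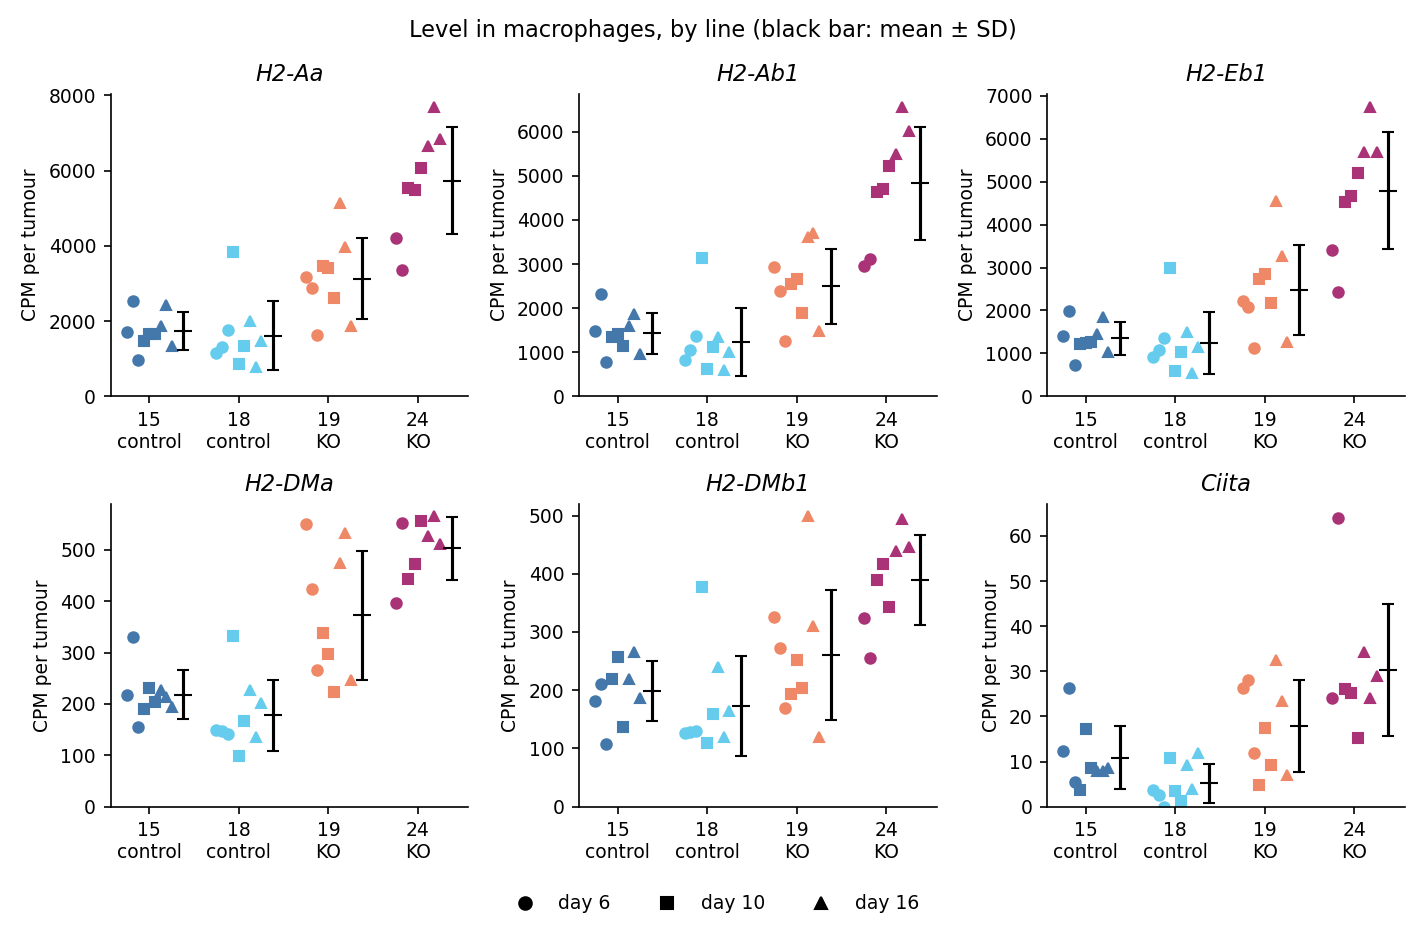
Level in macrophages (CPM per tumour) of the 6 genes by line, with the symbol giving the day and the black bar the mean ± SD over tumours. Line 24 has the highest mean in all 6 panels (H2-Aa 5735 ± 1419), line 19 the next (3134 ± 1064), and control lines 15 (1738 ± 496.8) and 18 (1614 ± 918.4) the lowest, and single tumours of the lines overlap.

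The share of macrophages holding a UMI of H2-Aa, H2-Ab1 or H2-Eb1 was also higher in the KO lines. After each macrophage was thinned to 1000 UMIs, the share was 45.72% of 2172 cells in control line 15 and 41.01% of 2975 in control line 18. It was 78.31% of 1222 cells in KO line 19 and 96.76% of 1914 in KO line 24. Unthinned shares were 58.0%, 53.14%, 84.92% and 98.23%, at median depths of 3494, 2828, 2173 and 2529 UMIs, and 62 to 100 cells a line were left out as too shallow.

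Both KO line means in macrophages lay above both control line means for all 6 genes. The share of all measured genes with this order was not counted. The members were also correlated (H2-Aa with H2-Eb1 at r = 0.996), so these are not 6 separate results. An exact permutation test over the 4 lines cannot give a two-sided p below 0.33, which is the value each gene had. When each line was summed to 1 sample, edgeR gave adjusted p = 0.084 to 0.129 for the members and called 0 of 11874 genes, with 2589 at an unadjusted p under 0.05. The small p-values above therefore measure the spread between tumours of these 4 lines, not between knockouts made independently.

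Libraries were checked in turn, since most tumours of a line shared one. With the mixed libraries alone, in which control and KO tumours were processed together, all 5 members that could be tested passed. H2-Aa differed there by a log2 value of 1.46 (adjusted p = 0.011), H2-Ab1 by 1.65, H2-Eb1 by 1.49, H2-DMa by 1.22 and H2-DMb1 by 0.92. Ciita was below the count filter. Of 7333 genes tested with the mixed libraries alone, 200 passed as higher and 111 as lower. With library as a term, Ciita (adjusted p = 0.084) and H2-DMb1 (adjusted p = 0.098) did not pass and the other 4 did. In that fit 192 of 7554 genes passed as higher and 128 as lower. Each single-line library held only control or only KO tumours, so the group difference in that fit was again read from the mixed libraries.

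Pairs within a library show where the difference was small. In the first mixed library, H2-Aa in macrophages of line 19 was 1.71, 1.59 and 1.41 times that of line 15 at days 6, 10 and 16, and 1.27 times that of line 18 at day 16. In the second, line 24 stood at 1.91 times line 18 at day 6 and 4.54 times at day 10. H2-DMb1 of line 19 at day 16 went the other way, at 0.645 times line 15 and 0.730 times line 18. Ciita did too, at 7.061 CPM from only 2 UMIs against 8.505 (18 UMIs) and 11.95 (32 UMIs). Each of these ratios compares single tumours.

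The size of the difference rests in part on line 24. Without it, the log2 differences were 0.96 for H2-Aa, 0.96 for H2-Ab1, 0.98 for H2-Eb1, 0.95 for H2-DMa and 1.18 for Ciita, all passing, while H2-DMb1 (0.56, adjusted p = 0.086) did not. Between the KO lines, macrophages of line 24 tumours exceeded those of line 19 in H2-Aa (log2 difference 0.88, SE 0.24, adjusted p = 0.0154), H2-Ab1 (0.97, SE 0.26, adjusted p = 0.0140) and H2-Eb1 (0.96, SE 0.26, adjusted p = 0.0147). H2-DMa (0.51, adjusted p = 0.087), H2-DMb1 (0.59, adjusted p = 0.093) and Ciita (0.87, adjusted p = 0.107) did not pass. These 3 passed as well without the count filter (adjusted p = 0.0010, 0.00014 and 0.026 in turn) and without line 18 (0.025, 0.035 and 0.037). In that contrast 4.55% of 7061 genes were higher and 3.75% lower in line 24. H2-DMb2, the neighbouring near-copy of H2-DMb1, was also higher (1.76), as were Cd74 (0.82), Ctss (0.40) and Irf8 (0.59).

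**Figure D3:**
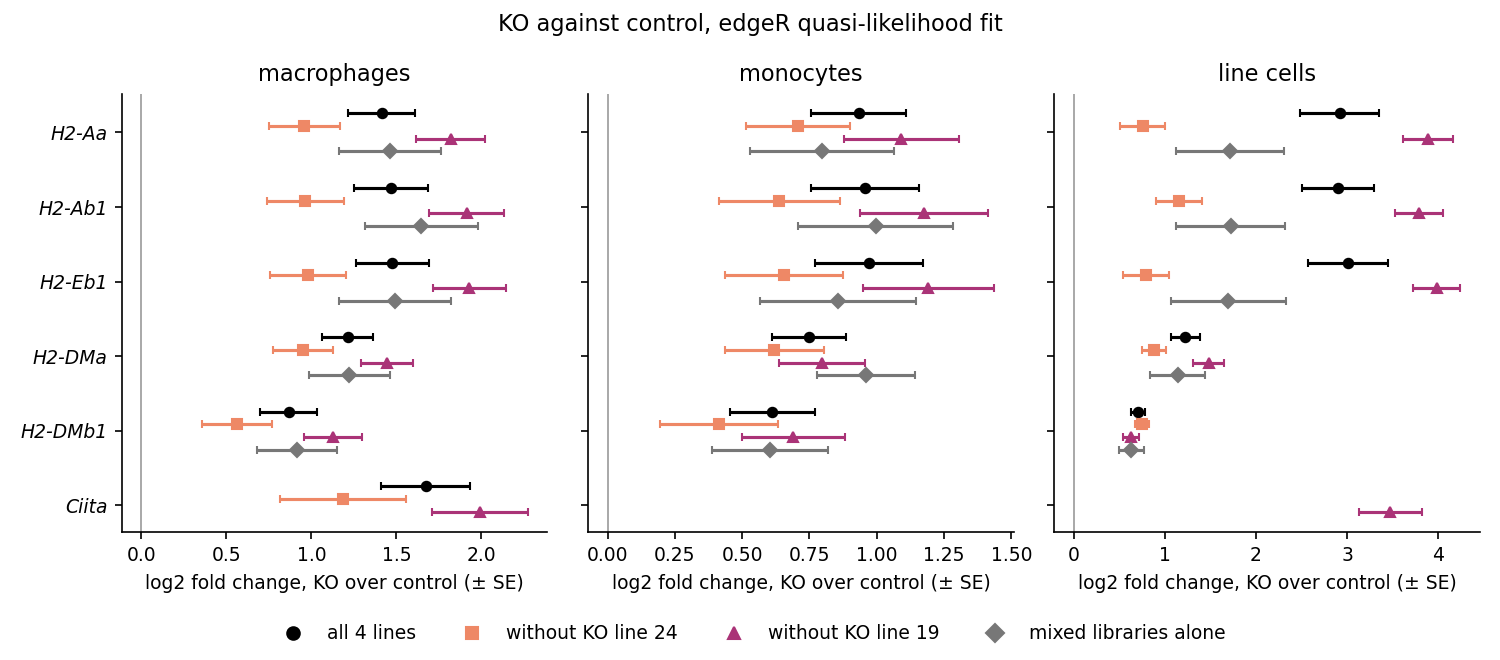
Log2 difference of KO over control (x axis, bars of 1 SE) for the members that passed the count filter, in macrophages, monocytes and line cells, from all 4 lines, without line 24, without line 19 and from the mixed libraries alone. All values plotted are above 0; in line cells H2-Aa stands at 2.92 with all 4 lines and 0.76 without line 24, while H2-DMb1 stands at 0.71 and 0.75.

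Of 19 other class II pathway genes, 14 were tested in macrophages: 5 rose, 3 fell and 6 did not pass, with a median log2 difference of 0.14. Over all 6603 genes tested there, 18.4% rose and 16.8% fell, so the number of pathway genes that fell lay near the share of all genes. The risers were Cd74, the invariant chain (1.22, SE 0.19), H2-DMb2 (1.30, SE 0.26), the protease Ctss that trims the invariant chain (0.52), and the costimulatory Cd80 (0.78) and Cd40 (0.71). Reads could be split between H2-DMb2 and H2-DMb1, so their separate values are uncertain. The genes that fell were Ifi30, a lysosomal thiol reductase (-0.43), the protease Lgmn (-0.37) and Rfxap, an RFX subunit (-0.33). Of the X and Y box proteins, Creb1 (0.04), Nfya (0.23), Nfyb (0.06) and Nfyc (-0.25) did not pass, so none of the 5 tested of 7 rose. The ubiquitin ligase gene listed as March1 (0.06) and the costimulatory Cd86 (0.32) did not pass either.

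Of 9 interferon gamma signalling genes, 8 were tested in macrophages, and 5 rose while both receptor chains fell, beside 18.4% and 16.8% of all genes tested. The kinases Jak2 (log2 difference 1.02, SE 0.21) and Jak1 (0.27) rose, as did the transcription factors Irf1 (0.72) and Irf8 (0.58). The receptor genes Ifngr1 (-0.31) and Ifngr2 (-0.32) fell, Socs1, a feedback inhibitor, did not pass (0.49, adjusted p = 0.062), and Ifng was below the count filter. The list's median was 0.52.

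Markers of other cell types were read in the same macrophage sums. Of 12 dendritic markers, 4 were tested and 2 were higher in KO tumours (Batf3 and Naaa). Their summed level was 82.11 to 268.5 CPM in control and 128.6 to 489.5 in KO tumours, against 2379 CPM or more in dendritic cells, and none was at 0 in all tumours. Of 8 monocyte markers, 7 were tested and 3 were higher (Plac8, Ccr2 and Ly6c2), at 1646 to 7145 CPM against 2792 to 5097, and 2 of 8 macrophage markers were lower (Ms4a7 and C1qa). Over all genes tested, 18.4% were higher and 16.8% lower. B cell markers summed to 5.435 to 43.2 CPM in control and 5.865 to 41.54 in KO tumours. T cell markers summed to 0 to 12.76 CPM in control and 2.632 to 48.01 in KO tumours. Their part in the class II difference was not tested.

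No member passed between days in macrophages. Here 0 of the 6 members passed between days 16 and 6 by edgeR over all 4 lines (1 at an unadjusted p under 0.05), nor did any by DESeq2, where 15.0% of 7061 genes passed in either direction. The log2 differences of day 16 minus day 6 were 0.37 for H2-Aa, 0.27 for H2-Ab1, 0.43 for H2-Eb1, 0.05 for H2-DMa, 0.42 for H2-DMb1 and -0.31 for Ciita. Without the count filter 4 members passed.

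H2-Aa averaged 3790 CPM at day 6 (2 tumours), 5697 at day 10 and 7070 at day 16 in macrophages of line 24, and 2568, 3170 and 3665 in those of line 19. It averaged 1738, 1598 and 1878 in line 15 and 1404, 2013 and 1425 in line 18. The change of the KO minus control difference from day 6 to day 16 was 0.70 (SE 0.40) for H2-Aa, 0.82 (SE 0.43) for H2-Ab1 and 0.96 (SE 0.42, adjusted p = 0.32) for H2-Eb1. By edgeR 0 of 6 passed (1 at an unadjusted p under 0.05) and by DESeq2 0, among 7277 genes of which 1.32% passed. Without the count filter 3 passed.

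Over all days together, monocytes of KO tumours were higher in the class II genes, with smaller log2 differences than in macrophages; whether these differ from those in macrophages was not tested. All 5 members tested were higher in KO tumours (17 control and 15 KO tumours). H2-Aa read 878.3, 1641 and 3144 CPM in control and 970.5, 3245 and 5711 in KO tumours, a log2 difference of 0.93 (SE 0.18, adjusted p = 0.000201). The ranges overlapped, with 9 of 15 KO tumours above every control tumour. At day 6 the group means of H2-Aa lay within their SDs, at 1472 ± 393.0 CPM in KO and 1460 ± 356.8 in control tumours (n = 5 each), against 4109 ± 1032 (n = 5) and 1706 ± 625.7 (n = 6) at day 10. In the mixed libraries, where a KO and a control tumour were processed together, the KO tumour was the lower at day 6 in both pairs (H2-Aa ratios of 0.626 and 0.569) and the higher in all 4 pairs of days 10 and 16 (1.69 to 3.57), of which 2 share a KO tumour. H2-Ab1 and H2-Eb1 ratios at day 6 were 0.575 to 0.684 as well, while those of H2-DMa were 1.72 and 1.43.

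H2-Ab1 differed by 0.96 on the log2 scale (SE 0.20, adjusted p = 0.000696), H2-Eb1 by 0.97 (SE 0.20, adjusted p = 0.000583), H2-DMa by 0.75 (SE 0.14, adjusted p = 0.000138) and H2-DMb1 by 0.61 (SE 0.16, adjusted p = 0.00479). KO tumours above every control tumour numbered 7, 8, 8 and 4 of 15. Ciita was under the count filter, with medians of 13.41 CPM in control and 25.55 in KO tumours from 58 and 106 UMIs. Of 3866 genes tested in monocytes, 10.0% were higher and 8.64% lower in KO tumours.

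The monocyte calls changed under several alternatives. Without line 24 none of the 5 passed by edgeR, with H2-Aa at 0.71 (adjusted p = 0.0501) and 4 of 5 at an unadjusted p under 0.05. With library as a term only H2-DMa passed (adjusted p = 0.0086), and in the mixed libraries alone H2-DMa (adjusted p = 0.0023) and H2-Ab1 (adjusted p = 0.047) passed. Over all genes, the library term called 70 of 4956 and the mixed libraries alone 199 of 4470. With at least 50 cells per tumour H2-DMa (adjusted p = 0.028) and H2-Aa (adjusted p = 0.046) passed, with the stricter gate all but H2-DMb1 (adjusted p = 0.057), and with 1 sum per line 0 of 6 by edgeR (5 at an unadjusted p under 0.05). Of 8 pathway genes tested of 19, Cd74 (0.64) and Cd40 (0.90) rose and Lgmn (-1.07) and Rfxap (-0.70) fell. Of 8 interferon gamma genes tested, 5 rose, among them Jak2 (0.62), Irf8 (0.93), Irf1 (0.61) and Jak1 (0.33), and Ifngr1 (-0.45) fell, beside 10.0% higher and 8.64% lower over all genes. Among monocyte markers Plac8 and Ly6c2 were higher and Vcan lower, and 3 of 6 tested macrophage markers were lower, Ms4a7 and Mrc1 among them. Their part was not tested.

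In dendritic cells 2 of the 6 genes were lower in KO tumours and none passed as higher. Only 4 control and 8 KO tumours had 20 or more of them, and 3 of the 4 control tumours were line 15 at day 6. H2-DMb1 read 947.2, 733.5 and 623.5 CPM in the line 15 tumours and 568.4 in the line 18 tumour. It read 393.9, 357.7, 312.9 and 370.3 in line 19 and 341.9, 498.5, 272.1 and 328.7 in line 24. All 8 KO tumours lay below all 4 control tumours, a log2 difference of -1.03 (SE 0.18, adjusted p = 0.0036). For this gene, and for H2-Ab1 below, the share of all genes tested that separated these tumours as fully was not counted.

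H2-Ab1 read 8968, 8688, 7396 and 5936 CPM in the control tumours and 3846 to 5794 in the KO tumours, which again lay lower throughout. Its log2 difference was -0.61 (SE 0.16, adjusted p = 0.044). H2-Eb1 (-0.51, adjusted p = 0.075), H2-Aa (-0.49, adjusted p = 0.1004), H2-DMa (-0.16) and Ciita (0.05) did not pass. Of 3342 genes tested, 0.539% were higher and 1.62% lower. None of 12 other pathway genes tested of 19, and none of 8 interferon gamma genes tested, passed.

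These 2 dendritic calls rest on few tumours. Without line 15, the 1 remaining control tumour, assumed to vary like the rest, gave H2-DMb1 -0.65 (adjusted p = 0.53) and H2-Ab1 0.04 (adjusted p = 0.965). Without line 19, H2-DMb1 was -0.99 (adjusted p = 0.10) and H2-Ab1 -0.34 (adjusted p = 0.45). With library as a term or with the mixed libraries alone neither passed, and H2-Ab1 did not pass without the count filter (adjusted p = 0.13) or with the other hashtag call (adjusted p = 0.22). Other alternatives called more members lower: H2-Eb1 passed too with DESeq2 (adjusted p = 0.025) and with at least 10 cells per tumour (adjusted p = 0.022), and without line 18 both H2-Eb1 (-0.72, adjusted p = 0.0057) and H2-Aa (-0.72, adjusted p = 0.0071) did. Dendritic markers summed to 4206 to 5582 CPM in control and 2379 to 5210 in KO tumours. Whether the dendritic and macrophage differences differ was not tested.

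In line cells all 5 members tested were higher in the KO lines: H2-DMb1 and H2-DMa, the peptide exchange pair, in both KO lines, and the chain genes mainly in line 24 and at very low levels. H2-DMb1 read 11.57, 16.79 and 20.94 CPM in control and 18.68, 24.87 and 44.31 in KO samples (21 each), and 18 of 21 KO samples lay above every control sample. The log2 difference was 0.71 (SE 0.077, adjusted p = 1.39e-09). It averaged 16.31 ± 2.731 CPM (SD, n = 11) and 16.71 ± 2.872 (n = 10) in control lines 15 and 18. It averaged 28.01 ± 8.074 (n = 11) and 26.86 ± 5.437 (n = 10) in KO lines 19 and 24, which differed by less than their SDs.

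H2-DMb1 was present at day 0, where the macrophage, monocyte and dendritic gates held 0 cells in lines 15, 18 and 19 and 3, 2 and 1 cells in line 24. Line 24 at day 0 also held 444 cells outside all gates, beside 3216 line cells. Day 0 samples shared a library with later tumours of their line, and the part of free RNA from those was not tested. The 2 day 0 samples of control line 15 averaged 19.73 CPM (360 UMIs), and the 1 sample of control line 18 read 16.36 CPM (32 UMIs, 235 cells). Those of KO lines 19 and 24, 2 each, averaged 43.36 CPM (683 UMIs) and 30.66 CPM (690 UMIs). Line 19 at day 0 had the highest mean of any line and day, and it averaged 24.18 to 24.88 at later days. Over all lines H2-DMb1 was lower at days 6 to 16 than at day 0 (log2 difference -0.35, SE 0.10, adjusted p = 0.0034). That call was lost without line 19 (-0.20, adjusted p = 0.17).

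H2-DMa in line cells read 2.037, 3.053 and 5.155 CPM in control and 3.541, 7.657 and 17.73 in KO samples, with 16 of 21 KO samples above every control sample. Its log2 difference was 1.22 (SE 0.16, adjusted p = 8.5e-08). Line 24 rose to 15.89 ± 2.597 (n = 3) at day 16 from 5.093 ± 0.353 (n = 2) at day 0, while line 19 was highest at day 0, at 8.813 ± 0.105 (n = 2).

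The chain genes were traces. H2-Aa read 0.566, 2.912 and 10.39 CPM in control and 2.02, 9.15 and 96.64 in KO samples, a log2 difference of 2.92 (SE 0.44, adjusted p = 1.0e-06). H2-Ab1 (2.90, SE 0.40, adjusted p = 1.7e-07) and H2-Eb1 (3.01, SE 0.44, adjusted p = 5.6e-07) moved alike. Most of the height came from line 24, where H2-Aa averaged 47.33 ± 30.42 (n = 10), against 5.085 ± 2.356 (n = 11) in line 19. The control lines 18 and 15 averaged 4.459 ± 2.555 (n = 10) and 2.239 ± 1.409 (n = 11).

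**Figure D4:**
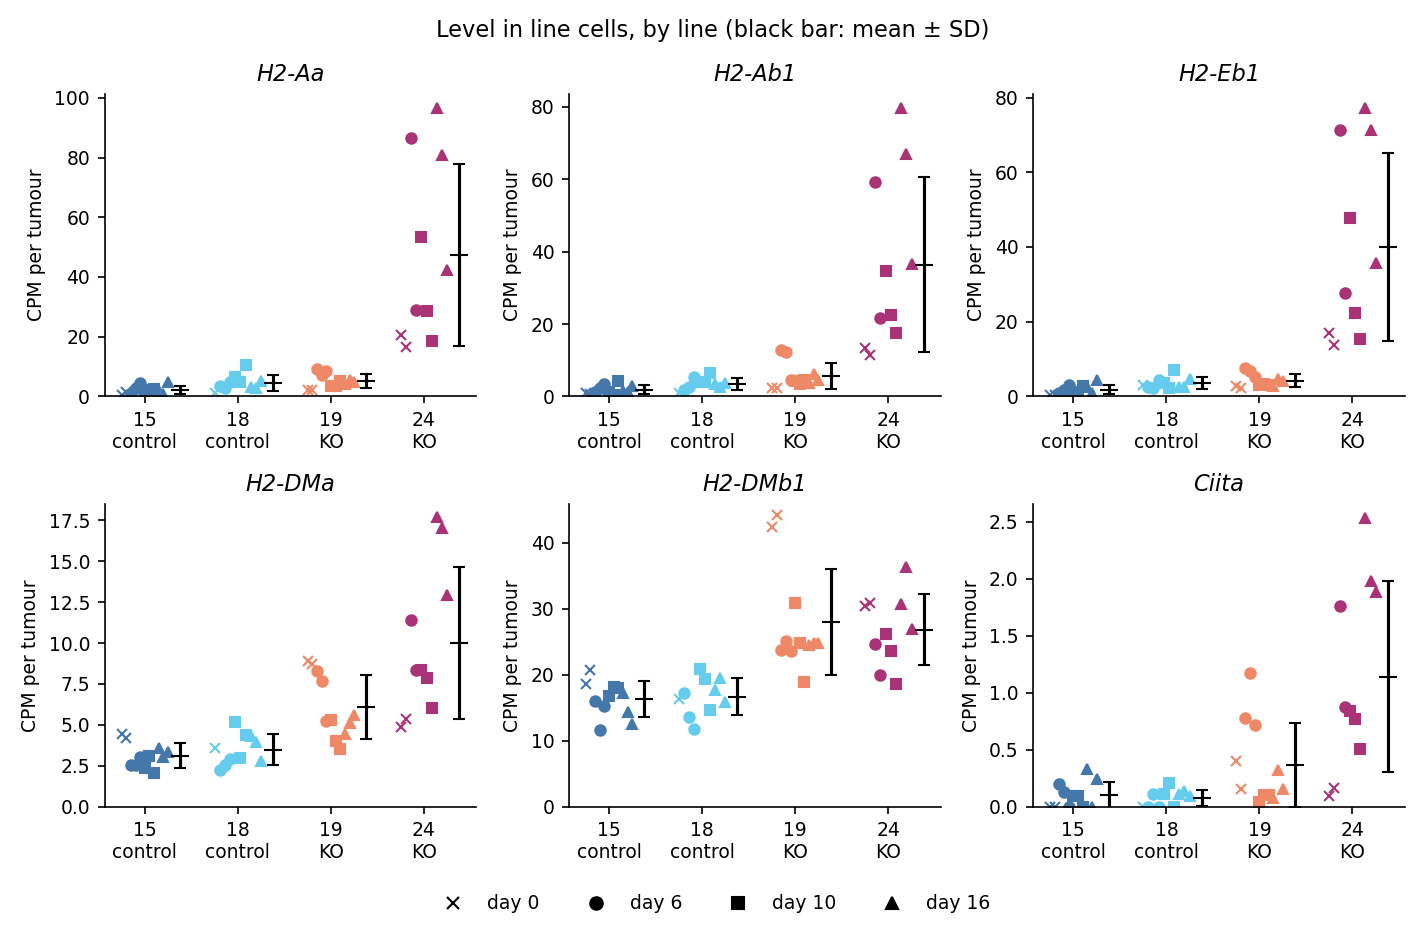
Level in line cells (CPM per tumour) of the 6 genes by line, with the symbol giving the day and the black bar the mean ± SD. H2-Aa, H2-Ab1 and H2-Eb1 are highest in line 24 (H2-Aa 16.52 to 96.64), while H2-DMb1 is raised in both KO lines (28.01 ± 8.074 and 26.86 ± 5.437).

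Without line 24 the log2 differences fell to 0.76 for H2-Aa, 1.16 for H2-Ab1, 0.79 for H2-Eb1 and 0.88 for H2-DMa, and stood at 0.75 for H2-DMb1, all passing. In the mixed libraries alone none of the 5 passed by edgeR, although all 5 had an unadjusted p under 0.05: H2-DMb1 differed by 0.63 (adjusted p = 0.052), H2-DMa by 1.14 (adjusted p = 0.090) and H2-Aa by 1.71 (adjusted p = 0.163). With library as a term these 5 passed, as did Ciita, which that fit tested (3.06, SE 0.76, adjusted p = 0.0058), at log2 differences of 1.19 for H2-Aa, 1.16 for H2-Ab1, 1.03 for H2-Eb1, 1.02 for H2-DMa and 0.66 for H2-DMb1. That fit called 1111 of 13164 genes higher and 717 lower. It too read the group difference from the mixed libraries, so it is no separate check on the fit of those alone. With each line summed to 1 sample, edgeR gave adjusted p = 0.61 to 0.62 for the 6 members, all at an unadjusted p under 0.05. Of 12697 genes tested in line cells, 27.7% were higher and 22.8% lower in KO samples. The members' calls stand among very many in these cells. Within the first mixed library, H2-Aa in line cells of line 19 was 1.94, 1.95 and 1.01 times that of line 15 at days 6, 10 and 16. At day 16 it was 0.978 times that of line 18. H2-Eb1 of line 19 at day 16 was 0.963 times line 15 and 0.871 times line 18. In the second, H2-Aa of line 24 was 6.18 times line 18 at day 6 and 1.78 times at day 10. Each ratio compares single tumours.

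Ciita in line cells was under the count filter of the comparison of all 4 lines, with 22 UMIs in control and 122 in KO samples. Control samples ranged from 0 to 0.328 CPM and KO samples from 0.0388 to 2.53, and 12 of 21 KO samples lay above every control sample. It was tested, and passed as higher, without line 15 (3.05), without line 18 (2.45) and without line 19 (3.48). In line 19 it stood at 0.889 ± 0.249 CPM (n = 3, 49 UMIs) at day 6 and at 0.0821 ± 0.0375 (n = 3, 5 UMIs) at day 10. In line 24 it stood at 2.13 ± 0.349 (n = 3, 29 UMIs) at day 16.

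Line cell levels were set beside those of macrophages; no empty droplets were used, so free RNA itself was not measured. At days 6 to 16 the H2-Aa level of line cells was 0.133%, 0.298%, 0.186% and 0.728% of the macrophage level for lines 15, 18, 19 and 24 in turn. For 12 macrophage and monocyte genes, which the line cell gate does not use although it bars cells with other blood transcripts, the median share in the same lines was 0.286%, 0.538%, 0.291% and 1.08%. The H2-Aa share lay below the median of these reference genes in all 4 lines, and those of H2-Ab1 (0.132%, 0.318%, 0.258% and 0.671%) and H2-Eb1 (0.143%, 0.300%, 0.187% and 0.727%) did too. Some reference genes are scarcer in macrophages than in monocytes, such as Plac8 (129 and 1745 CPM) and Vcan (8.139 and 141.3). A low macrophage level raises the share, so the median depends on the genes taken.

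Other members lay higher. H2-DMa reached 1.34%, 1.80%, 1.55% and 2.04% of its macrophage level, and H2-DMb1 reached 7.66%, 9.40%, 9.92% and 5.95%. Ciita reached 1.47%, 1.20%, 2.23% and 4.62%. Cd74, which is not a member, reached 0.148%, 0.3303%, 0.600% and 1.59%. It lay below the reference median in lines 15 and 18 and above it in lines 19 and 24. Vcan, at 16.61% to 74.96%, and Plac8 were the highest of the reference genes.

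The share of line cells with a UMI was read at equal depth. After thinning to 1000 UMIs, the shares of line cells with a UMI of H2-Aa, H2-Ab1 or H2-Eb1 were 0.653%, 1.36%, 1.96% and 11.57% for lines 15, 18, 19 and 24. Unthinned shares were 5.136%, 6.21%, 9.623% and 29.39%, at median depths of 9333, 5887, 9052 and 4461 UMIs, and 172 to 690 cells were left out. In T cells, which in the mouse should lack these genes, the thinned shares were 8.122%, 4.678%, 8.885% and 17.64%, and the unthinned shares 11.5%, 11.17%, 13.01% and 26.02% at median depths of 2115 to 2349 UMIs. The line cell shares at equal depth were below those of T cells in all 4 lines, while the unthinned share of line 24 was above (29.39% against 26.02%). No expression was read from these shares, and the part of free RNA was not tested. The T cell gate did not bar dendritic or monocyte markers, so the gated T cells are not a clean baseline. Levels in T cells at days 6 to 16 came to 14.0%, 7.79%, 9.58% and 10.01% of the macrophage level for H2-Aa, 23.47%, 12.59%, 8.79% and 14.22% for H2-DMa, and 5.26%, 2.41%, 7.78% and 11.63% for H2-DMb1. The T cell share of H2-DMa lay above that of line cells in all 4 lines, and the share of H2-DMb1 lay above it in line 24 alone. Cells gated as fibroblasts averaged 5.222 ± 7.718 CPM of H2-Aa, 18.05 ± 14.52 of H2-Ab1 and 3.523 ± 3.047 of H2-Eb1 (n = 33 tumours). Line cells of all samples, WT and day 0 included, averaged 14.13, 11.42 and 11.81 CPM in turn (n = 45). H2-Ab1 was thus higher in fibroblasts, and the others were lower.

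A small group of line cells carried more. Of 57520 line cells, 324 held at least 5 UMIs of the 3 chain genes together, and 98.15% of these held Cd74, against 14.71% of all line cells. Of the 324, 196 (60.49%) held none of the 12 reference transcripts, against 86.0% of all line cells and 0.4885% of macrophages. They made up 129 of 2820 line cells in line 24 at day 16 (4.57%, exact Clopper-Pearson 95% interval 3.83% to 5.41%), 27 of 1407 at day 6 (1.92%, 1.27% to 2.78%) and 28 of 3216 at day 0 (0.871%, 0.579% to 1.26%). They made up 32 of 4300 in line 24 at day 10 (0.744%, 0.510% to 1.05%). In line 19 they made up 54 of 4966 at day 6 (1.09%, 0.818% to 1.42%), 9 of 6426 at day 10 (0.140%, 0.0641% to 0.266%) and 24 of 5776 at day 16 (0.416%, 0.266% to 0.618%). No day held more than 5 such cells in line 15 or 18, and day 0 held 0 of 1121, 0 of 235 and 0 of 1300 cells in lines 15, 18 and 19, which allows shares up to 0.268%, 1.28% and 0.231%. All these shares pool the cells of a line's tumours at a day. The intervals and limits therefore cover counting error and not the spread between tumours. In line 24 at day 16, H2-Aa in line cells ran from 42.38 to 96.64 CPM between tumours. Pairs of cells from 1 tumour caught together remain among the cells used, and their part was not tested.

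Line cells that held no UMI of the 12 reference genes were compared again, a choice made after seeing the data. The log2 differences were then 2.68 for H2-Aa, 2.69 for H2-Ab1, 2.76 for H2-Eb1, 1.19 for H2-DMa, 0.68 for H2-DMb1 and 2.59 for Ciita, all passing. T cell markers in the line cell sums were higher in KO samples for 5 of 5 tested of 6. They summed to 0 to 4.839 CPM in control and 0.404 to 22.42 in KO samples, the top being line 24. Monocyte markers were higher for 5 of 6 tested of 8, and macrophage markers for 1 of 7, at 4.189 to 42.58 CPM in control and 4.04 to 73.43 in KO samples. Their part in the line cell differences was not tested.

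Among 13 pathway genes tested in line cells, 4 rose, 2 fell and 7 did not pass, beside 27.7% higher and 22.8% lower over all genes. Cd74 rose by 3.59 on the log2 scale (SE 0.38), from 1.611 to 23.72 CPM in control to 20.2 to 688.7 in KO samples, with 17 of 21 KO samples above every control sample. Ctss (1.25), the RFX subunit Rfxank (0.35) and Ifi30 (0.22) rose, and Cd80 (-1.48) and Nfyc (-0.18) fell. Of the 9 interferon gamma genes, 8 rose, among them Ifng (3.27), Irf8 (1.29), Irf1 (0.70), Socs1 (0.66), Jak2 (0.52), Ifngr1 (0.42) and Jak1 (0.37). Ifng lay near the floor, at a mean log2 CPM of -1.14. T cell markers were also higher in these sums, and whether line cells themselves transcribed Ifng was not tested. Ifngr2 (0.11) did not pass.

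The 2 KO lines differed in line cells. Line 24 exceeded line 19 in H2-Aa (log2 difference 3.14, SE 0.26, adjusted p = 2.7e-13), H2-Ab1 (2.64), H2-Eb1 (3.17), H2-DMa (0.59, adjusted p = 0.0098) and Ciita (1.82, SE 0.39, adjusted p = 0.000114). H2-DMb1 did not pass (-0.14, adjusted p = 0.275). With the other hashtag call H2-DMa no longer passed (0.36, adjusted p = 0.082) and Ciita was under the count filter. Of 12819 genes, 29.6% were higher and 28.3% lower in line 24. Mif itself was higher in line 24 than in line 19 (2.05), and so were 8 of 9 interferon gamma genes, Ifngr2 being lower.

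Between days 6 to 16 and day 0, H2-Aa (log2 difference 1.60, SE 0.34, adjusted p = 0.00012), H2-Ab1 (1.67), H2-Eb1 (1.501) and Ciita (2.54, SE 0.61, adjusted p = 0.00053) rose in line cells and H2-DMa (-0.01) did not pass. Without line 24, H2-DMa was lower at days 6 to 16 (-0.51, SE 0.18, adjusted p = 0.021) and Ciita was under the count filter. In that contrast 26.7% of 12819 genes were higher and 28.9% lower, 8 of 9 interferon gamma genes rose, and all 5 T cell markers tested rose. Macrophages, monocytes and dendritic cells were present at the later days and at or near 0 cells at day 0. The day 0 samples were still run in the same libraries as later tumours of their line. Their line cells held the 12 reference genes at a median of 0.0957% (line 15) to 0.513% (line 24) of the later macrophage level. The part of free RNA was not tested. The line cells without reference transcripts gave 1.56, 1.58, 1.39 and 2.96 for the same 4 genes. Between days 16 and 6, 0 of 6 members passed by edgeR and none by DESeq2 (0 at an unadjusted p under 0.05 in either), where 36.1% of genes passed. For the change of the KO minus control difference from day 6 to day 16, 0 of 6 passed by both tools (0 at an unadjusted p under 0.05), where 9.81% of 13164 genes passed. Without line 24, 1 of 5 members tested passed, H2-DMa (-0.85, SE 0.27, adjusted p = 0.048).

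Genes with a like pattern were ranked by Pearson correlation with the mean log2 CPM of H2-Aa, H2-Ab1 and H2-Eb1 across 35 tumours of days 6 to 16, as a description. In macrophages, over 6597 genes, these were Cd74 (r = 0.986), Bcl2a1b (0.888), Dnase1l3 (0.861), Plbd1 (0.854) and Bcl2a1d (0.849). H2-Aa and H2-Eb1 correlated at 0.996, H2-Aa and H2-DMb1 at 0.911, and H2-Aa and Ciita at 0.700. In line cells, over 12692 genes, the leading genes were Rbbp6 (0.959), AW112010 (0.958), Srgn (0.955), Cd74 (0.953) and Runx3 (0.944). There H2-Aa and H2-DMb1 correlated at 0.602, lower than H2-Aa and H2-DMa at 0.894. Tumours of a line share a library and its depth, so the points are not independent.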

How the data were processed

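The deposited files are UMI counts per gene and cell for 6 gene expression libraries; per the submitters' processing notes the authors used Cell Ranger 6.0.0 and mm10. Alignment settings and annotation were not given in the sources used here. The deposited hash sheet gave each hashtag's line and day (unit other, in days). The 6 members and the lists were chosen with earlier results of these data known.

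Cells under 300 genes or over 15% mitochondrial counts were left out. Hashtags were called with HTODemux (Seurat 5.3.0, positive quantile 0.99). Of 47 hashtags, 45 were used; the other 2, line 18 day 0 letter B (33 counts) and line 24 day 6 letter B (7281 counts), held under 0.1% of their library's hashtag counts. Hashtag doublets were removed, doublets within a tumour remain, and no doublet caller was run. Classes were gated on raw UMIs of marker genes. Day 0 macrophages, monocytes and dendritic cells were too few to test.

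UMIs were summed per tumour and class (at least 20 cells) and tested with edgeR 4.0.16 (filterByExpr, TMM, quasi-likelihood, R 4.3.3), with day and group as terms, line terms for contrasts of lines and days, and tumour terms between classes. P-values were adjusted over all genes tested by Benjamini-Hochberg, threshold 0.05, two-sided. The tests were checked on simulated data. The labels do not say that tumours came from separate animals, so p-values measure the spread between these samples. Same line and day pairs differed by more than sampling noise (chi-square per degree of freedom 1.384 to 36.13 over 37 pairs). Counting intervals and limits (3 counts) cover counting error only.

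Genes are named by rule: the 6 members, 2 fixed lists, Mif, and the 5 genes most correlated with the 3 chain genes. Cell type markers are named from the fixed marker lists, some of them after their values were seen. The fits were repeated without the count filter, with RLE scaling, with DESeq2 1.42.0, and with another hashtag call, stricter cells and gates, other cell minimums, 1 sum per line, mixed libraries, a library term, and each line left out. Promoter letters are from RefSeq (GRCm38.p6), with motif forms chosen with these promoters in view; positions are from GENCODE M21. Results on some genes of the lists are not reported here.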

Additional observations from a re-analysis of the deposited data

Results flagged for a closer look

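In 11 of 72 groups of a line's tumours, the highest tumour stood apart from the rest by Dixon's 95% criterion. Independent groups of normal values meet it by chance in about 1 in 20. These groups mix days and hold the same tumours for correlated genes, so their number cannot be set against that rate. In macrophages, 1 tumour, line 18 day 10 letter A, was the lone high value of its control line for H2-Aa (3832 CPM), H2-Ab1 (3134), H2-Eb1 (2983) and H2-DMb1 (376.5). In monocytes, line 15 day 16 letter B was the lone high value for H2-Aa (3144 CPM), H2-Ab1 (2785), H2-Eb1 (2383) and H2-DMb1 (439.9). These 2 control tumours set the upper end of the control ranges for those genes. The others were H2-DMa in macrophages of line 15 day 6 letter B (329.8 CPM), Ciita in macrophages of line 24 day 6 letter C (63.95 CPM) and H2-Eb1 in line cells of line 18 day 10 letter C (7.2 CPM).

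The 2 KO lines, which carry the same label, differed. In macrophages line 24 exceeded line 19 by log2 differences of 0.8792 for H2-Aa, 0.9694 for H2-Ab1 and 0.9603 for H2-Eb1. In line cells it did so by 3.142 for H2-Aa, 2.645 for H2-Ab1, 3.174 for H2-Eb1, 0.592 for H2-DMa and 1.819 for Ciita. The tests are those of the report.

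The WT tumours, which have no group in the labels, also gave chain gene UMIs in their line cells. The lowest of the 3 WT tumours read 8.778 CPM of H2-Ab1 and 8.984 of H2-Eb1, above the highest control sample (6.492 and 7.2). For H2-Aa the lowest WT value, 10.22 CPM, lay below the highest control sample at 10.39. No test was made, the part of free RNA was not tested, and no expression was read from these values.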

How the results depend on the processing

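Counts of genes called moved by more than 1.5 times as follows. With each line summed to 1 sample, edgeR called 0 genes in macrophages (2589 at an unadjusted p under 0.05), against 2327, 0 in line cells (1225 unadjusted), against 6407, 0 in dendritic cells (360 unadjusted), against 72, and 58 in monocytes, against 721. The mixed libraries alone gave 311 in macrophages, 199 in monocytes, 153 in line cells and 0 in dendritic cells (208 unadjusted). A library term gave 320, 70, 1828 and 0 (212 unadjusted) in the same order. At least 50 cells per tumour gave 450 in monocytes, and at least 10 gave 171 in dendritic cells. Without the count filter there were 157 in dendritic cells, 884 (against 586) between macrophages of lines 24 and 19, and 230 (against 96) for the day change of the macrophage difference. The hashtag call by ratio gave 1088 for lines 24 and 19 in macrophages, and 55 in macrophages and 673 (against 1291) in line cells for the day change. The stricter gate gave 686 (against 1059) for days 16 and 6 in macrophages, 638 (against 1922) for dendritic cells against macrophages, and 38 for the day change in macrophages.

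Leaving out 1 line at a time gave, for KO against control, 598 (without line 24) to 2773 genes in macrophages, 77 (without line 24; 420 without line 15) to 742 in monocytes, 0 (without line 15; 374 unadjusted) to 118 in dendritic cells (12 without line 19, 42 without line 24), and 4479 to 7701 in line cells. It gave 464 to 630 between lines 24 and 19 in macrophages and 7323 to 7572 in line cells. Days 16 and 6 gave 280 (without line 15) to 1103 in macrophages and 2413 (without line 18) to 5183 in line cells, and days 6 to 16 against day 0 gave 6099 to 7147. Monocytes against macrophages gave 2357 to 2944 and dendritic cells against macrophages 1276 (without line 19) to 1879. The day change of the KO difference gave 18 (without line 24; 33 without line 19, 54 without line 18) to 126 in macrophages and 225 (without line 18; 857 without line 19) to 1286 in line cells.

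Among single members, H2-Ab1 in dendritic cells turned to 0.045 (adjusted p = 0.965) without line 15 and stood at -0.84 without line 18; no other member changed direction past its threshold. Of 89 alternative values for the members in macrophages, 80 kept their call and 9 lost it; the figures were 54 and 21 of 75 in monocytes, 59 and 11 of 75 in dendritic cells, where 4 gained a call and 1 turned, and 75 and 10 of 85 in line cells. The cause of each change was not tested beyond the smaller number of samples or genes. The stricter gate and the minimum of 50 cells could not be fitted for KO against control in dendritic cells. No analysis paired by replicate number was made, since the groups share no such numbers; fits with a library term and ratios within the mixed libraries are given. Ciita had 1432 UMIs in all, dendritic cells 12 tumours, and each group 2 lines, and each of these limits the precision.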

Other observations

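The 3 WT tumours, sampled at days 6, 10 and 16, gave these values. In macrophages H2-Aa read 2749, 2727 and 5055 CPM, H2-DMa 311.7, 266 and 451, H2-DMb1 216, 242.4 and 349.3, and Ciita 21.75, 10.67 and 19.45 (15, 14 and 26 UMIs). For H2-Aa there, control tumours ran from 784 to 3832 CPM and KO tumours from 1640 to 7702. The day 16 WT tumour thus lay above every control tumour. Control line 18 in the same library read 1761 CPM at day 6 and 1335 at day 10. WT tumours were not tested against either group. In monocytes H2-Aa read 1632, 3146 and 4157 CPM, against 878.3 to 3144 in control and 970.5 to 5711 in KO tumours. In line cells H2-Aa read 10.63, 10.22 and 16.32 CPM, H2-Ab1 11.25, 8.778 and 14.47, and H2-Eb1 9.272, 8.984 and 13.18, while H2-DMb1 read 21.31, 20.3 and 19.05. In macrophages the day 16 tumour was the highest of the 3 in all of these but Ciita.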
